A study of Oryza sativa Japonica Group with 6 samples.

Results

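The genes described here take up nitrate and ammonium and build the first amino acids from them in rice roots. They are 10 loci, chosen by locus identifier from 31010 genes in the deposited table: 3 AMT1 ammonium transporter genes, NRT2.1, NRT2.2, NRT2.3, NAR2.1, NRT1.1B, GS1;2 and NADH-GOGAT1. RNA-seq was done on rice (Oryza sativa Japonica Group) root tips about 0.8 cm long, taken from 7-day seedlings on a diluted Murashige and Skoog medium, which supplies both nitrate and ammonium, with 14 h light at 28 °C and 10 h dark at 24 °C and no treatment. The wild type was ZH11 (Zhonghua 11), and plt345 was a triple mutant of the root meristem transcription factor genes PLT3, PLT4 and PLT5, each genotype with 3 libraries of 20759896 to 21309371 reads counted on genes. The labels give neither the kind of mutation nor whether plt345 is a single line, nor whether the libraries of a genotype were grown apart, so the spread behind the p-values may be technical.

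Roots take up ammonium through AMT proteins of the plasma membrane and nitrate through NRT2 proteins, which work at low outside nitrate and need the small partner protein NAR2, and through NPF proteins such as NRT1.1B. Nitrate is reduced to nitrite by nitrate reductase in the cytosol and to ammonium by nitrite reductase in plastids. Glutamine synthetase (GS) then binds ammonium to glutamate, and glutamate synthase (GOGAT) turns the glutamine formed into glutamate. Many of these genes respond to the plant's nitrogen supply, and in roots many are most active behind the meristem, where cells have stopped dividing.

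In plt345 root tips the AMT1 gene LOC_Os02g40730 and the nitrate transporter genes NRT2.1 and NRT2.2 were at over 2 times the wild type level. So was their partner NAR2.1, while NRT1.1B was only just past 2 times, at 2.06-fold. For none of these genes did the genotypes overlap. Another ammonium transporter gene, AMT1;1, rose 1.11-fold. On the assimilation side GS1;2 fell 1.33-fold, while NADH-GOGAT1 averaged 6914 ± 207 in wild type and 7093 ± 167 in the mutant (SD, n = 3). Values are the authors' normalized counts, in which library depth has been divided out, and a log2 fold change compares plt345 with wild type after a pseudocount of 1, with the standard error (SE) that limma fitted across all genes. A gene was called at a Benjamini-Hochberg adjusted p under 0.05. In a bulk root tip, fewer cells of a type and less RNA per cell cannot be told apart.

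Of the 10 genes, 8 reached the mean of 10 normalized counts needed for the test, 5 were called higher, 1 lower, and 2 did not pass. NRT2.2 reached that mean through the plt345 libraries alone, so it could only come out higher and its call was favoured in advance. LOC_Os02g40710 and NRT2.1 stayed below it. With no minimum all 10 were tested, with 7 higher, 1 lower and the same 2 genes, NRT2.3 and NADH-GOGAT1, not passing. The calls added there rest on 4 wild type reads for NRT2.1 and 2 for LOC_Os02g40710. The shares of all genes below are for those that reached the minimum. Among all 23166 tested genes 34.0% were called higher and 34.0% lower, so the share of these genes that differed is near that of genes at large. Rises of at least 2-fold were made by 4 of the 8, against 13.8% of all tested genes, and falls of that size by none, against 2.97%. NRT1.1B was only just among the 4 (log2 fold change 1.04, 95% interval 0.76 to 1.33). Without NRT2.2, 4 of 7 were called higher, 3 of them by 2-fold or more, and 1 lower. Without all genes that passed through 1 genotype alone, 6794 of 21761 were higher, 2149 of them by 2-fold or more, and 7692 lower. The libraries of the genotypes did not overlap for 8 of the 10 genes and for 6 of the 8 tested, against 71.0% of all tested genes. As the genes were picked with results of these data known, these counts are a description.

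**Figure D1:**
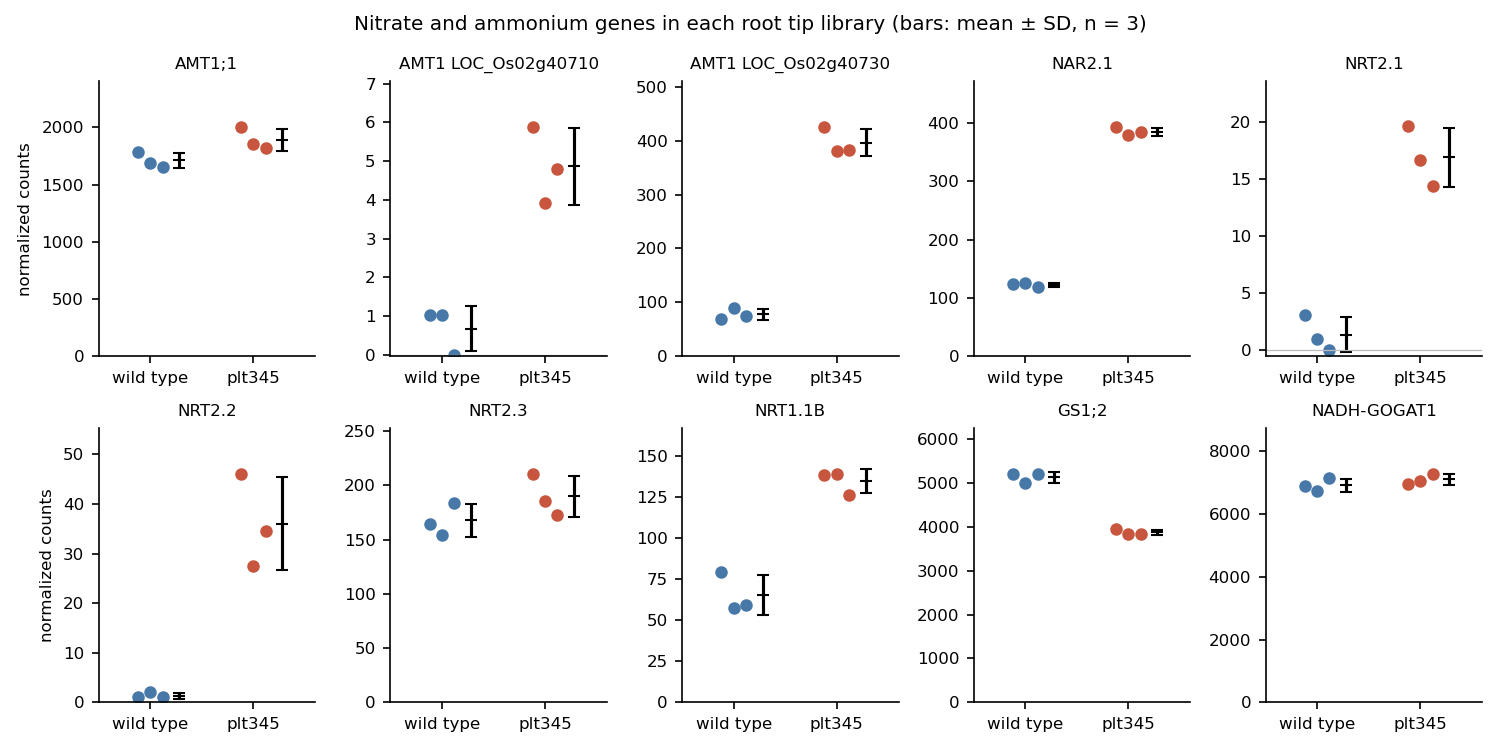
Normalized counts (vertical axes, a scale for each gene) of the 10 genes in each library, with wild type at left and plt345 at right in each panel; points are libraries and bars the mean ± SD of 3. The genotypes do not overlap for 8 genes and overlap for NRT2.3 and NADH-GOGAT1.

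The whole table gives some context. PLT3 (LOC_Os02g40070) and PLT4 (LOC_Os04g42570) had 218 to 595 normalized counts in every library of both genotypes. PLT3 did not pass, and PLT4 was called lower without overlap, from 269.8 to 231.4 on average (limma adjusted p = 0.0198). In the authors' deposited table PLT4 did not pass (adjusted p = 0.0993). PLT5 (LOC_Os01g67410) rose from 513 to 564 in wild type to 1259 to 1277 in plt345. All of them were thus still expressed in plt345, so transcript levels do not check the genotype. Marker lists of cell types moved too. The summed level of 3 secondary wall genes of xylem (CESA4, CESA7 and CESA9), all called higher, went from 2247 to 2307 in wild type to 3873 to 3904 in plt345. That of 3 genes of exodermis and endodermis (LSI1 and LSI2 higher, CASP1 lower) went from 3729 to 3903 to 8374 to 8623. That of 3 genes of dividing cells (PCNA, MCM4 and CYCB2;2), all called lower, went from 4872 to 5035 to 3492 to 3710. The 4 root meristem markers summed to 1922 to 1975 and 3123 to 3171, with 3 higher, and the 3 root hair markers to 2356 to 2613 and 2694 to 2842, with 2 higher. The 2 green tissue markers used (CAB1R and CAB2R) were low, and their sum went from 44.0 to 54.2 down to 5.87 to 13.5. That fall was in CAB1R, which was called lower (log2 fold change -3.36, limma adjusted p = 1.63e-09). CAB2R, below the minimum, averaged 6.80 in wild type and 6.48 in plt345. Another planned marker, RBCS3, was left out as its pair of symbol and identifier went against the reference table. It averaged 15.3 and 12.6 and was not called. No used marker of these 6 lists was at 0 in every library. The part that a different mix of cells had in the results below was not tested.

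The AMT1 genes encode high-affinity ammonium transporters. AMT1;1 (LOC_Os04g43070, chromosome 4) was at 1784, 1692 and 1655 normalized counts in the wild type libraries and 2001, 1858 and 1818 in the plt345 libraries. Every plt345 library lay above every wild type library, but the nearest of them were close together. The log2 fold change was 0.15 (SE 0.04, limma adjusted p = 0.00307), from 1710 ± 66.1 to 1893 ± 96.3 (SD, n = 3 each), and it lay at the 62.2nd percentile of all tested genes.

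The other AMT1 genes are next to each other on chromosome 2 and are known as AMT1;2 and AMT1;3. The reference gene table lists both symbols as synonyms of both genes and places OsAMT1;3 first along the chromosome, while the naming used here gives AMT1;2 to the first identifier, so they are given by identifier. LOC_Os02g40730 (entered as AMT1;3) was at 69.2, 89.0 and 73.7 in wild type and at 425.6, 381.6 and 382.7 in plt345. The groups are far apart: the lowest plt345 library is more than 4 times the highest wild type library. The mean rose 5.13-fold (log2 fold change 2.35, SE 0.10, limma adjusted p = 1.41e-16), a log2 change larger than 94.9% of all tested genes. LOC_Os02g40710 (entered as AMT1;2) was nearly silent, with 1, 1 and 0 reads in wild type and 6, 4 and 5 in plt345. Summed over libraries and scaled by depth, the read ratio was 7.15 with a 95% exact binomial interval of 1.66 to 64.4, which covers counting error only. With no minimum it was called (limma adjusted p = 0.00265), while in the authors' deposited table its adjusted p was 0.0667.

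Within the AMT1 genes the make-up of the reads shifted. AMT1;1 held 95.6% ± 0.64 of their normalized counts in wild type and 82.5% ± 0.28 in plt345 (SD, n = 3), and LOC_Os02g40730 went from 4.33% ± 0.63 to 17.3% ± 0.25. The ratio of LOC_Os02g40730 to AMT1;1 was 0.0388, 0.0526 and 0.0445 in wild type and 0.213, 0.205 and 0.210 in plt345, a 4.66-fold rise (log2 change 2.22). Over 3 libraries against 3 the exact two-sided permutation test gave p = 0.1, the smallest it can give, also after adjustment over the 3 ratios that could be tested. The summed level of the 3 genes went from 1788 ± 62.7 to 2294 ± 122, a ratio of 1.28. These shares compare genotypes, not transcript abundance between genes, as gene lengths were not used.

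NRT2.1 and NRT2.2 lie side by side on chromosome 2 and encode high-affinity nitrate transporters that are nearly the same in sequence in rice. How reads that fit both were counted is not given in the sources used here, so their low levels and their split are uncertain, and their sum is given too. NRT2.1 (LOC_Os02g02170) had 3, 1 and 0 reads in the wild type libraries and 20, 17 and 15 in the plt345 libraries. NRT2.2 (LOC_Os02g02190) had 1, 2 and 1 in wild type and 47, 28 and 36 in plt345. Both genes were close to silent in wild type and low but present in every plt345 library. The depth-scaled read ratios were 12.4 for NRT2.1 (95% exact binomial interval 4.56 to 47.2) and 26.5 for NRT2.2 (10.0 to 98.8). Together they went from 8 reads to 163, a ratio of 19.4 with an interval of 9.63 to 45.8. In limma NRT2.2 had a log2 fold change of 3.97 with SE 0.37 and adjusted p = 7.49e-10, and NRT2.1, tested with no minimum, 3.14 with SE 0.48 and adjusted p = 0.000172. The fitted value of NRT2.2 depends on the pseudocount, at 2.67 with a pseudocount of 5.

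NAR2.1 (LOC_Os02g38230), the partner protein without which rice NRT2.1, NRT2.2 and the NRT2.3a form carry little nitrate, was at 124.1, 124.8 and 118.7 in wild type and 393.2, 379.6 and 384.6 in plt345. Libraries of a genotype were within a few percent of each other and the genotypes far apart. The rise was 3.15-fold (log2 fold change 1.65, SE 0.08, limma adjusted p = 2.03e-15), larger than 91.8% of all tested genes. The sum of NRT2.1 and NRT2.2 relative to NAR2.1 rose as well, from 0.0328, 0.0246 and 0.00862 to 0.167, 0.116 and 0.128, a 7.08-fold change of the ratio with every plt345 library above every wild type library (exact permutation p = 0.1, the smallest possible). The wild type values of this ratio rest on 8 reads of NRT2.1 and NRT2.2 in all, so its size is uncertain.

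NRT2.3 (LOC_Os01g50820, chromosome 1), known for moving nitrate from root to shoot, did not pass the test. It was at 164.7, 154.4 and 184.2 in wild type and 210.8, 185.9 and 173.1 in plt345, and the genotypes overlap. Its log2 fold change was 0.18, with a 95% interval of -0.03 to 0.38 (SE 0.10, limma adjusted p = 0.119). With values scaled to equal library totals it passed (log2 fold change 0.26, limma adjusted p = 0.0217). NRT2.3 held 98.4% ± 0.97 of the normalized counts of the 3 NRT2 genes in wild type and 78.3% ± 2.33 in plt345 (SD, n = 3).

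NRT1.1B (LOC_Os10g40600, chromosome 10) encodes an NPF family protein that both carries and senses nitrate and is known for a difference between indica and japonica rice. It was at 79.3, 57.3 and 59.3 in wild type and 138.3, 138.9 and 126.0 in plt345, with a clear gap between the genotypes. The mean rose 2.06-fold (log2 fold change 1.04, 95% interval 0.76 to 1.33, SE 0.14, limma adjusted p = 2.69e-07). Under the alternatives the log2 fold change ran from 0.96 to 1.19, so a rise of at least 2-fold is not firm. Its symbol is not in the reference table, and the same holds for NADH-GOGAT1, so the identity of both rests on nomenclature.

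**Figure D2:**
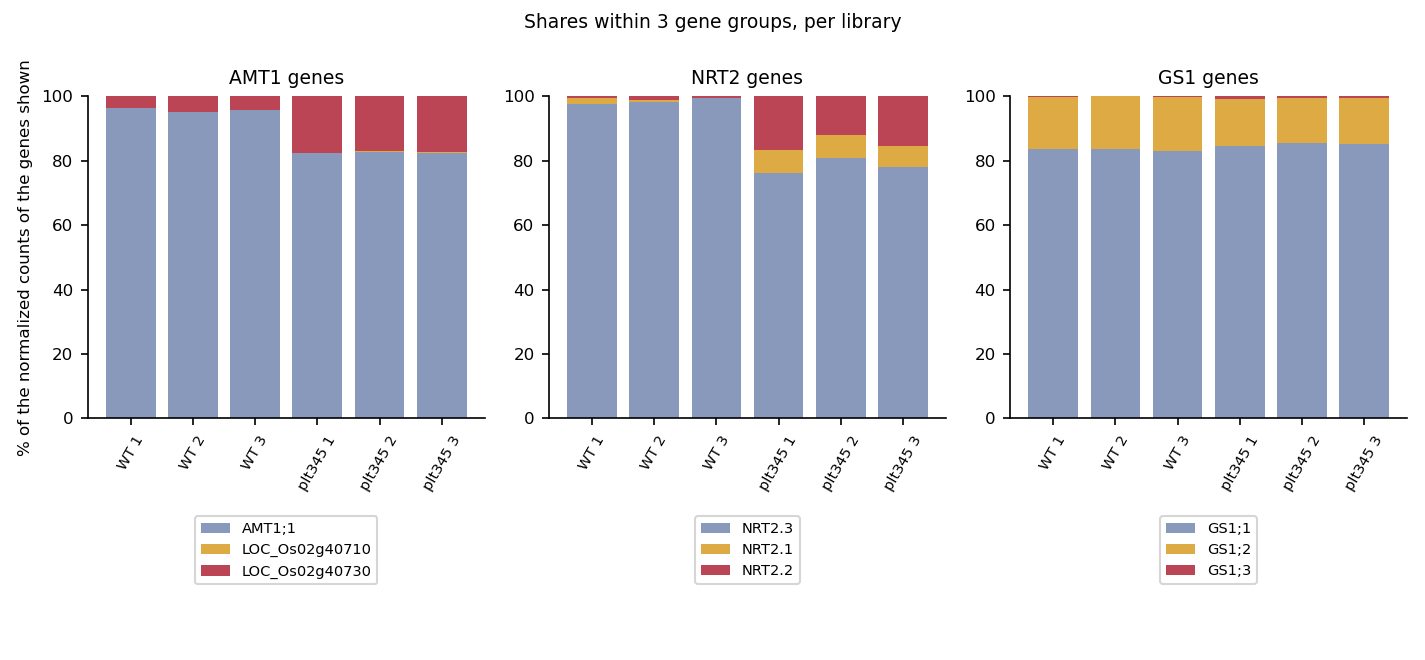
Percent of the normalized counts of the 3 AMT1, the 3 NRT2 and the 3 GS1 genes (stacked to 100 in each panel) held by each gene in each library, 3 of wild type (WT) and 3 of plt345. LOC_Os02g40730 takes 17.3% of the AMT1 counts in plt345 on average against 4.33% in wild type, and NRT2.1 and NRT2.2 take shares that are barely seen in wild type, while GS1;1 holds 83.4% of the GS1 counts in wild type and 85.1% in plt345.

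GS1;2 (LOC_Os03g12290, chromosome 3), a cytosolic glutamine synthetase that assimilates ammonium in rice roots, was the member that fell. It was at 5205, 4984 and 5194 in wild type and 3943, 3832 and 3828 in plt345. The highest plt345 library was well below the lowest wild type library, at a difference many times the spread within a genotype. The log2 fold change was -0.41 (SE 0.03, limma adjusted p = 1.13e-11), and 15.7% of all tested genes had a lower value.

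NADH-GOGAT1 (LOC_Os01g48960, chromosome 1), the glutamate synthase that works beside GS1;2 in outer root cells supplied with ammonium, was at 6885, 6723 and 7134 in wild type and 6946, 7058 and 7275 in plt345. The genotypes overlap. The log2 fold change was 0.04, with a 95% interval of -0.02 to 0.10 (SE 0.03, limma adjusted p = 0.278), and with equal library totals it was 0.12 (limma adjusted p = 0.000766). The ratio of NADH-GOGAT1 to GS1;2, which no scaling of libraries can move, was 1.32, 1.35 and 1.37 in wild type and 1.76, 1.84 and 1.90 in plt345, a 1.36-fold rise with no overlap (exact permutation p = 0.1, the smallest possible).

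**Figure D3:**
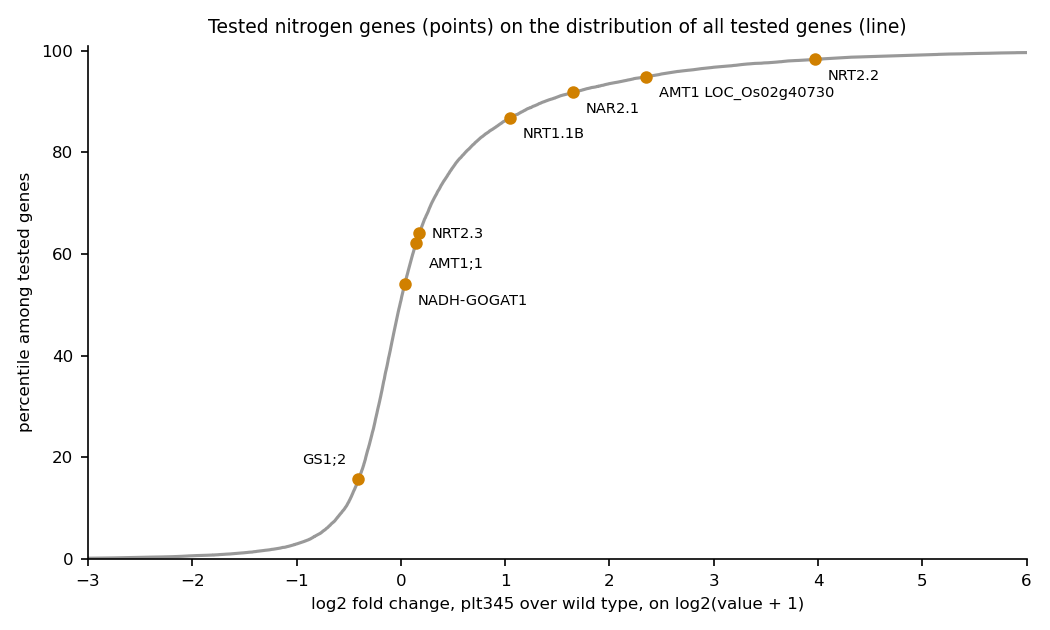
Percentile among all 23166 tested genes (vertical axis) against log2 fold change between plt345 and wild type with a pseudocount of 1 (horizontal axis), with the 8 tested members as points on the line of all genes. NRT2.2, LOC_Os02g40730, NAR2.1 and NRT1.1B lie at 86.7 or above, NADH-GOGAT1, AMT1;1 and NRT2.3 near the middle, and GS1;2 at 15.7.

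A wider list of 44 other genes of nitrogen uptake, assimilation and its regulation was then read from the same fit. NRT2.4 was not analysed here, the pair of symbol and identifier for AS2 went against the reference table and was left out, and 2 genes (NAR2.2 and NRT1.1C) were below the minimum. Of the 40 tested, 21 were called higher, 9 lower and 10 did not pass, where 34.0% of all tested genes were higher and 34.0% lower. The median log2 fold change was 0.12, against -0.01 over all tested genes. Rises of at least 2-fold were found in 11 of the 40, and a fall of that size in 1, against 13.8% and 2.97% of all tested genes. NPF2.2 reached the minimum through the plt345 libraries alone, so it could only come out higher and its call was favoured in advance. Without it 20 of 39 were higher, 10 of them by 2-fold or more, and 9 lower, with the median at 0.12. Without all genes that passed through 1 genotype alone, 6794 of 21761 tested genes were higher, 2149 of them by 2-fold or more. On that rule 7692 were lower, with the median at -0.03. Among the 20 tested genes whose symbol the reference table also holds, 8 were higher and 6 lower.

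The largest change in the list was in nitrite reductase. The gene entered as NIR2 (LOC_Os02g52730) was at 37.6, 27.6 and 34.8 in wild type and 2936, 2774 and 2814 in plt345. The 3 libraries of each genotype lay close together, and the genotypes far apart. The ratio of means was 85.2 and the log2 fold change 6.38 (SE 0.09, limma adjusted p = 5.82e-27), larger than 99.7% of tested genes. The other nitrite reductase gene, NIR1 (LOC_Os01g25484), was at 9537 ± 499 and 9428 ± 321 and did not pass (limma adjusted p = 0.689). Of the 3 nitrate reductase genes, NIA1 and NIA2 did not pass and NR2 (LOC_Os02g53130) fell 1.52-fold, from 469.2 ± 29.6 to 309.5 ± 13.4 (limma adjusted p = 1.59e-08). The names NIR1, NIA1, NIA2 and NR2 were added after seeing the values, and of these nitrate and nitrite reductase symbols the reference table holds NIA1 alone.

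Among the 6 other ammonium transporter genes, of the AMT2 and AMT3 groups, 3 were higher, 1 was lower and 2 did not pass, where the share of all tested genes was 34.0% in each direction. AMT3;2 (LOC_Os03g62200) was at 536.9, 489.9 and 479.8 in wild type and 1684, 1651 and 1577 in plt345, a 3.26-fold rise (limma adjusted p = 2.51e-20). AMT3;3 (LOC_Os02g34580) rose 2.39-fold and AMT3;1 (LOC_Os01g65000, named after its value was seen) 1.81-fold, so all 3 AMT3 genes rose. AMT2;2 (LOC_Os01g61550) went the other way, from 58.0, 59.3 and 70.6 to 15.7, 34.2 and 26.0, a 2.48-fold fall with no overlap (limma adjusted p = 1.21e-05). The other AMT2 genes, AMT2;1 and AMT2;3, did not pass (log2 fold changes 0.11 and 0.03), though AMT2;1 passed with equal library totals (0.20, limma adjusted p = 0.0188). Both names were added with their values known.

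NPF genes linked to nitrate or peptide transport were higher in 8 of 10 tested, lower in 1, with 1 that did not pass, and their median log2 fold change was 1.23. Without NPF2.2, whose call was favoured in advance, 7 of 9 were higher and the median was 1.17. Of all tested genes 34.0% were higher, and 6794 of 21761 without those that passed through 1 genotype alone. The call of NPF2.4 (LOC_Os03g48180, log2 fold change 0.09), named after its value was seen, was lost without wild type replicate 3 (limma adjusted p = 0.0876) and without plt345 replicate 1 (0.0542). Under its other alternatives it passed, with an adjusted p of 8.06e-06 to 0.0442. NPF2.2 (LOC_Os12g44100), known for unloading nitrate from the xylem, had 2, 1 and 4 reads in wild type and 68, 54 and 57 in plt345, a depth-scaled read ratio of 24.4 (95% exact binomial interval 11.6 to 61.5). PTR9 (LOC_Os06g49250), which raises nitrogen uptake when overexpressed in rice, was at 115.9, 112.5 and 154.5 in wild type and 518.7, 514.6 and 551.9 in plt345, a 4.14-fold rise. NPF8.9 (LOC_Os03g13274), a low-affinity nitrate transporter gene of roots, rose 2.47-fold from 439.3 ± 29.6 to 1085 ± 75.2 (limma adjusted p = 2.22e-16). SP1 (LOC_Os11g12740), named for its short panicle mutant, rose 3.75-fold, NPF7.2 (LOC_Os02g47090) 2.54-fold and NPF7.7 (LOC_Os10g42870) 2.25-fold. None of these NPF symbols is in the reference table.

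Of the 5 other glutamine and glutamate synthase genes 3 were called lower and 2 higher, beside 34.0% of all tested genes in each direction. GS1;1 (LOC_Os02g50240), GS2 (LOC_Os04g56400, the plastid form) and NADH-GOGAT2 (LOC_Os05g48200) fell 1.12-fold, 1.31-fold and 1.58-fold, and Fd-GOGAT (LOC_Os07g46460) rose 1.15-fold, these 4 named after their values were seen. GS1;3 (LOC_Os03g50490), known in rice from the developing grain, was at 45.8, 26.6 and 35.8 in wild type and 194.2, 175.1 and 166.4 in plt345, a 4.95-fold rise (log2 fold change 2.31, SE 0.16, limma adjusted p = 2.62e-12). It still held just 0.657% ± 0.06 of the GS1 counts in plt345, after 0.115% ± 0.03 in wild type (SD, n = 3), and the summed GS1 level went from 31182 ± 957 to 27179 ± 514. Of the 4 asparagine synthetase and glutamate dehydrogenase genes tested, 2 were called higher, 1 of them by at least 2-fold, 1 lower, and 1 did not pass. The gene entered as the asparagine synthetase AS1 (LOC_Os03g18130), whose product stores nitrogen as asparagine, was at 1225, 1083 and 1147 in wild type and 3077, 3062 and 2964 in plt345, a 2.63-fold rise (limma adjusted p = 4.14e-20). The share of all tested genes was 34.0% in each direction here too.

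Of 10 regulators and kinases tested, 5 were higher and 2 lower, none of them by 2-fold, beside 34.0% of all tested genes in each direction. IDD10 (LOC_Os04g47860), an activator of ammonium-responsive genes, fell 1.43-fold, from 2023, 1857 and 2006 to 1403, 1334 and 1366 (limma adjusted p = 1.93e-11). NIGT1 (LOC_Os02g22020), a repressor gene induced by nitrate, fell 1.59-fold, from 228.8, 186.2 and 182.1 to 116.7, 130.1 and 129.8 (limma adjusted p = 5.87e-06), and was named after its value was seen. The rises that passed under every alternative run were those of NLP4 (LOC_Os09g37710, 1.37-fold, limma adjusted p = 3.00e-08), of CIPK23 (LOC_Os07g05620, 1.32-fold, 1.62e-09), a kinase known in Arabidopsis to act on nitrate and ammonium transporters, and of ACTPK1 (LOC_Os02g02780, 1.14-fold, 0.000385), a rice kinase that acts on an AMT1 transporter. The called increases of NLP2 and NLP5, like NLP4 of the NIN-like proteins that activate nitrate-responsive genes, were lost when some libraries were left out, NLP2 without wild type replicate 1 (log2 fold change 0.15) or plt345 replicate 1 (0.16), and NLP5 without wild type replicate 2 (0.10) or plt345 replicate 3 (0.10). NLP2 also did not pass in the authors' deposited table (adjusted p = 0.131). These 5 genes were named after their values were seen.

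**Figure D4:**
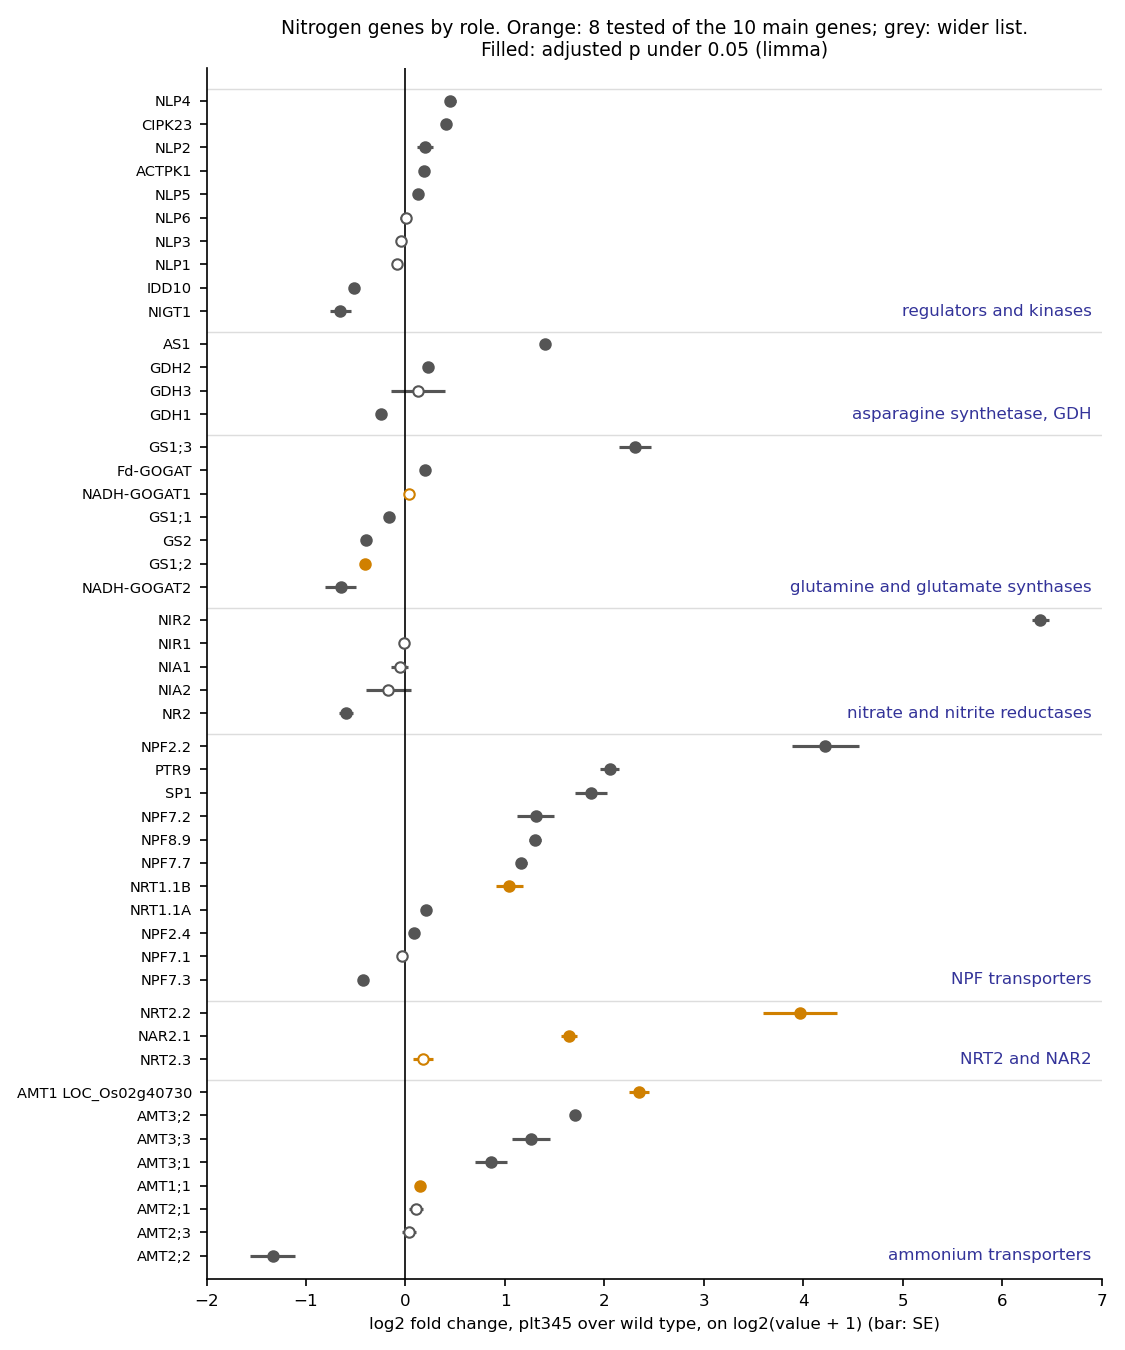
Log2 fold change between plt345 and wild type with a pseudocount of 1 (horizontal axis, positive where plt345 is higher, bars are the SE of the limma fit) for the tested members (orange) and wider list (grey), grouped by role; filled points passed an adjusted p under 0.05. NIR2 at 6.38 is the farthest to the right, NPF2.2 and NRT2.2 follow, and the glutamine synthetase genes apart from GS1;3 lie left of 0.

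The loci beside the tandem pairs were also read, in order of identifier, as a description. No listed locus lies between the members of either pair. Of the 10 nearest listed loci around the AMT1 pair, 8 were tested, and 4 were called higher and none lower. Of these 4, LOC_Os02g40530 and LOC_Os02g40770 reached the minimum through the plt345 libraries alone. They could only come out higher, so their calls were favoured in advance, and without them 2 of 6 were higher. LOC_Os02g40700, just before the pair, rose from 41.2 to 107.7 normalized counts on average (log2 fold change 1.37), and LOC_Os02g40770, close after it, went from 6.12 to 32.4. Around NRT2.1 and NRT2.2 the 10 nearest loci were all tested, and 8 were called lower and none higher. Of the 8, LOC_Os02g02250 reached the minimum through wild type alone (15.3 against 5.19), and without it 7 of 9 were lower. Over all tested genes the share was 34.0% in each direction. Without genes that passed through 1 genotype alone, 6794 of 21761 were higher and 7692 lower, so 2 of 6 around the AMT1 pair is near the share of genes at large. LOC_Os02g02160, just before NRT2.1, fell from 708.9 to 408.4 (log2 fold change -0.80), and LOC_Os02g02310 fell from 1408 to 806.7. The sources used here give these loci no name, and those with values were picked after seeing them.

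**Figure D5:**
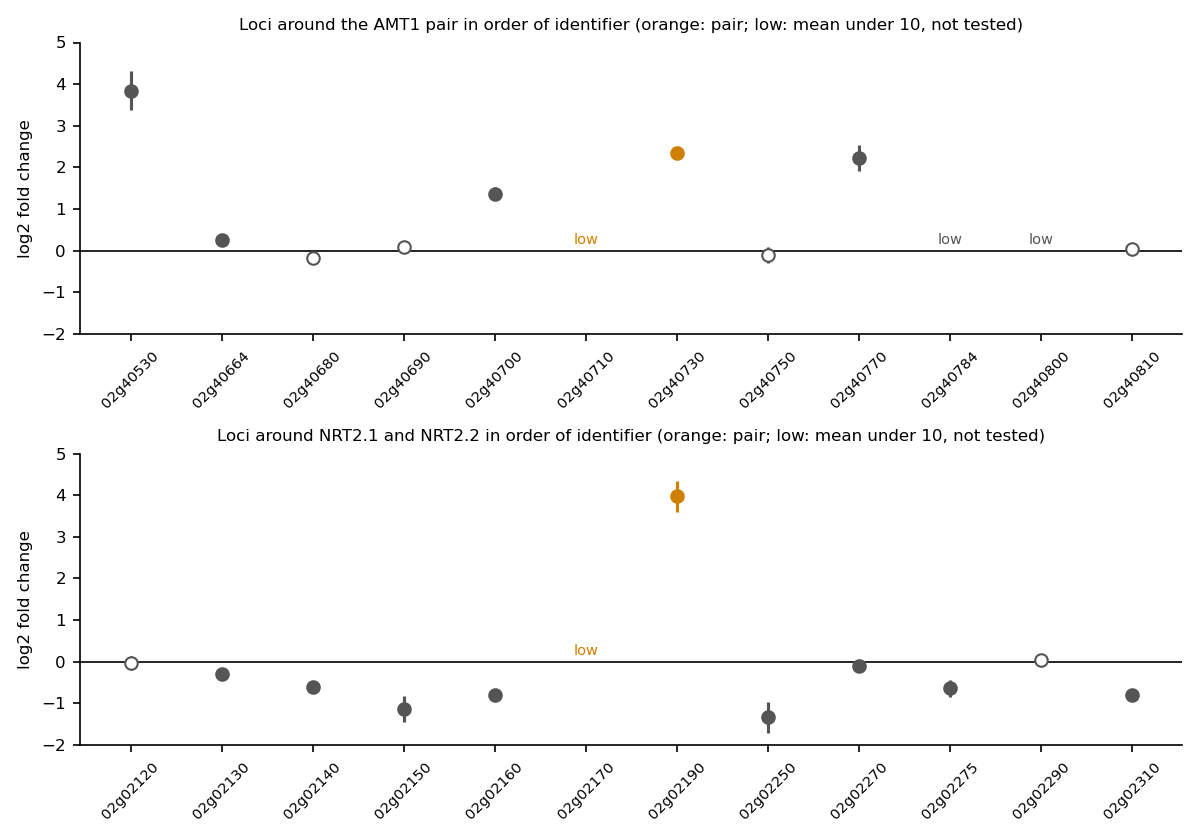
Log2 fold change between plt345 and wild type (vertical axes, positive where plt345 is higher, bars are SE) of the AMT1 pair, of NRT2.1 and NRT2.2 (orange) and of the 5 nearest listed loci on either side (grey), in order of identifier along chromosome 2; filled points passed an adjusted p under 0.05 in limma, and loci marked low had a mean under 10. Around the AMT1 pair 4 neighbours are higher, 2 of them past the minimum through plt345 alone, and around the NRT2 pair 8 are lower, 1 of them past it through wild type alone.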

How the data were processed

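Per the labels' protocols, TRIzol-extracted RNA was read from both ends on a BGISEQ-500. HISAT2, featureCounts 2.0.0 and then DESeq2 1.38.3 appear in the submitters' processing notes, with no settings. The genome build, strand setting and treatment of reads that fit several genes are not given in sources used here, so reads of near-identical or overlapping genes may be misassigned. The authors deposited 1 table with size-factor-normalized counts per library, a signal that is never negative, and their mean. Their log2 fold changes with standard errors, their test statistic as a score and their p-values are from DESeq2 per the file headers. Dividing each library by its smallest step gave whole reads for 100% of values (tolerance 0.01 read).

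Genes with a mean of at least 10 were tested with limma 3.58.1 on log2(value + 1) (trend, two-sided, no covariate) in R 4.3.3, with Benjamini-Hochberg adjustment over 23166 genes. edgeR 4.0.16 (quasi-likelihood) on the recovered reads was an alternative and called 7963 genes higher and 7983 lower, with a biological coefficient of variation of 2.72%. The limma fit was tested on simulated data with known changes, drawn with 1 common spread for all genes. It recovered 56% of 1.25-fold, 80% of 1.5-fold, 96% of 2-fold and 98% of 4-fold changes (50 genes each), with 3 false calls. Genes with a larger spread of their own were not simulated. With equal library totals 60.8% of called genes were higher, against 50.1%, and the median of all genes moved by 0.09 (log2).

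Libraries of a genotype differed by more than counting noise (chi-square per gene 1.42 to 2.08, against 53.3 to 54.8 between genotypes). The members and lists were chosen with earlier results of these data known. Symbols were written from nomenclature and checked for a gene of that symbol within 1 Mb of the place interpolated from other pairs in the reference table (assembly ASM3414082v1), which held 8 of the 10 members and 21 of the 44 wider genes. That check shows a pair to be plausible, not equal. It was not run for PLT3, PLT4 and PLT5, whose identifiers rest on nomenclature. All 10 members are named, and of the wider list those called with at least a 2-fold change and the smallest adjusted p in each role; other names are marked. No sequence is shown, as none was in the sources used here.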

Additional observations from a re-analysis of the deposited data

How the results depend on the processing

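Of 119 values of the 8 tested members under the alternatives, 117 kept their direction and side of the threshold. The exceptions were NRT2.3 (log2 fold change 0.26) and NADH-GOGAT1 (0.12), which passed with equal library totals. The count of members called higher was 5. It ranged from 4 with a minimum mean of 50 to 7 with no minimum or with equal library totals, and 1 was lower throughout. With equal library totals 9338 of all tested genes were called higher and 6016 lower, against 7886 and 7865 in the main fit. The share of all genes called with no minimum is not given here. Of the wider list 19 to 22 were higher and 8 or 9 lower under the other settings. With symbols held by the reference table alone, an alternative chosen after seeing the data, 8 were higher. Without NPF2.2, likewise chosen after seeing the data, 20 were higher and 9 lower. With the replicate number as a block 5 members were higher and 1 lower, as without it, and the wider counts were 21 and 9. Same-numbered libraries deviated together with r of 0.024, 0.0193 and -0.000854 over all tested genes. Over genes with a mean of at least 50, r was higher, at 0.0702, 0.0510 and 0.0265. Libraries of different number were at -0.0527 to 0.0004 there. All of these r are small, and the numbers were not taken as pairs, though a weak pairing may exist. Leaving out each library moved the log2 change of the ratio of NRT2.1 plus NRT2.2 to NAR2.1 between 2.25 and 3.21. The 4 ratios with NRT2.1 or LOC_Os02g40710 on their own could not be tested, since each had a library with 0 reads. Depth limits NRT2.1, NRT2.2 and LOC_Os02g40710, with 4 or fewer reads over the wild type libraries.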
